A study of Homo sapiens with 2 samples.

Results

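Interferon genes, the chains of their receptors and the kinase JAK1 were followed in colorectal cancer cells that lack most of their DNA methylation. The group consisted of 10 genes, of 16920 with at least 1 probe set on the array. These were the interferon genes IFNB1, IFNE, IFNK and IFNG, the receptor chains IFNAR1, IFNAR2, IFNGR1, IFNGR2 and IL10RB, and JAK1. A probe set, which is a few probes against a single exon or part of it, was taken for a gene when that gene was its only symbol in the annotation of the platform. This gave 112 probe sets, of 261481 that belonged to 1 gene, and 0 probe sets were shared between any of these genes and another gene.

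Total RNA was measured on Affymetrix human exon 1.0-ST arrays in HCT116-DKO cells and in HCT116-WT cells, with 1 array for each. HCT116-DKO has the genotype DNMT1-/- DNMT3b -/- and derives from HCT116, a line of colon cancer cells with intact DNMT1 and DNMT3B genes, which is HCT116-WT here. Both were grown in McCoy's 5A medium with serum and received no treatment according to the labels. The DKO cells are a single derived line (DKO1), so traits of this line and effects of the gene disruptions cannot be told apart, and since each line had 1 array, replicate errors and tests could not be had for any value. Both targeted genes passed the rule of size described below: DNMT1 fell to a level of 9.36 in HCT116-DKO, against 10.63 in HCT116-WT, and DNMT3B fell to 6.91 in HCT116-DKO, against 8.32 in HCT116-WT. Epithelial keratins were bright in both cultures, with KRT8 at 13.33 in HCT116-DKO and 13.02 in HCT116-WT and KRT18 at 12.79 in HCT116-DKO and 12.36 in HCT116-WT. Above background in both arrays were 8 of 11 epithelial markers. Of all 16253 genes with at least 3 probe sets, 10782 were, a share close to that of the epithelial markers. Of these markers, the intestinal factors CDX2 (8.39 in HCT116-DKO and 8.92 in HCT116-WT) and CDX1 (7.72 in HCT116-DKO and 7.81 in HCT116-WT) were above background in both, whereas VIL1, KRT20 and CEACAM5 were below it in both.

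Interferons are secreted proteins that warn cells of infection. IFNB1 and IFNE are type I interferons, IFNK is a type I interferon known from keratinocytes, and all of them bind the receptor built from IFNAR1 and IFNAR2. IFNG, the type II interferon of T cells and NK cells, binds IFNGR1 and IFNGR2. IL10RB is a shared chain, used by the receptors of IL-10, IL-22 and the type III interferons. The chains have no enzyme activity of their own. JAK1 is the tyrosine kinase bound to type I, type II and type III interferon receptors, where it works together with TYK2 or JAK2 to phosphorylate STAT proteins. These then enter the nucleus, alone or with IRF9, and switch on interferon-stimulated genes.

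CpG dinucleotides, the sites of DNA methylation in these cells, were counted in the RefSeq promoter windows of the genes, each with 250 bases before and 50 bases after a transcription start. The table (assembly GRCh38.p14) held 13 windows of 9 of the genes and lacked IFNAR2. The windows of the ligands and those of the receptor chains and JAK1 did not overlap in CpG number. The 4 ligand windows held 1 CpG (IFNB1), 2 (IFNE), 5 (IFNK) and 2 (IFNG), whereas the other 9 windows held between 9 and 44. The median of all 35116 promoter windows was 14. Of all windows, 33.7% held at most 5 CpGs, the highest count among the ligands. At most 9, the count of the JAK1 window with the fewest, were held by 43.6%. GC content was 29.7% to 41.0% in the ligand windows and 41.7% to 80.0% in the other windows. The following windows show the contrast for the interferons that respond to viruses (IFNB1) and come from lymphocytes (IFNG). Beside them stand IFNGR2, with the most CpGs of all these windows (44), and the JAK1 start site with the most CpGs. They are printed in the direction of transcription with each CpG in capitals. How much of this sequence was methylated in either line was not measured by these arrays.
IFNB1 promoter, chr9:21077893-21078192, minus strand: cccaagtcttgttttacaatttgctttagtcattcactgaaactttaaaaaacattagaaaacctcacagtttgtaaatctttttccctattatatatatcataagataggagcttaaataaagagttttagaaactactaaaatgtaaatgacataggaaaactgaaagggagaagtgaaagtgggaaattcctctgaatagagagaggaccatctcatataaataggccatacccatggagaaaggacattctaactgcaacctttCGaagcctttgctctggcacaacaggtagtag
IFNG promoter, chr12:68159691-68159990, minus strand: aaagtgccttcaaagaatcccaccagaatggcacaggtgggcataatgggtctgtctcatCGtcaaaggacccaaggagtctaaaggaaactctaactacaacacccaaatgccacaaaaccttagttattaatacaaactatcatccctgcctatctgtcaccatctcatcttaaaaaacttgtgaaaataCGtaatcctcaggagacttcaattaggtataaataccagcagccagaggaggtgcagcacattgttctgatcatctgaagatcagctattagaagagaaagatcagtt
IFNGR2 promoter, chr21:33403163-33403462, plus strand: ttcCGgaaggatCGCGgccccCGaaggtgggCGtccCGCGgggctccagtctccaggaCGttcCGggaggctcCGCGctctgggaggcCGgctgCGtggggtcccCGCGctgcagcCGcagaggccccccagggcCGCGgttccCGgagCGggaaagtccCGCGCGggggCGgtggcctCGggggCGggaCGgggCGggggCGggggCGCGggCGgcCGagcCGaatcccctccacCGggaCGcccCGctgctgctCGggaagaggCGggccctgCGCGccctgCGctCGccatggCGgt
JAK1 promoter, chr1:64966500-64966799, minus strand: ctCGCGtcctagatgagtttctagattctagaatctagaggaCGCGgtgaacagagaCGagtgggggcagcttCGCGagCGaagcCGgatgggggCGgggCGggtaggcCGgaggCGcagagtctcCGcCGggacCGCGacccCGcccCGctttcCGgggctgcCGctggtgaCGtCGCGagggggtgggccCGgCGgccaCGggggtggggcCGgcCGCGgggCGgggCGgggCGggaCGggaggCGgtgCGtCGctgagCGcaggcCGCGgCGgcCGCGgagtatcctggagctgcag

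**Figure D1:**
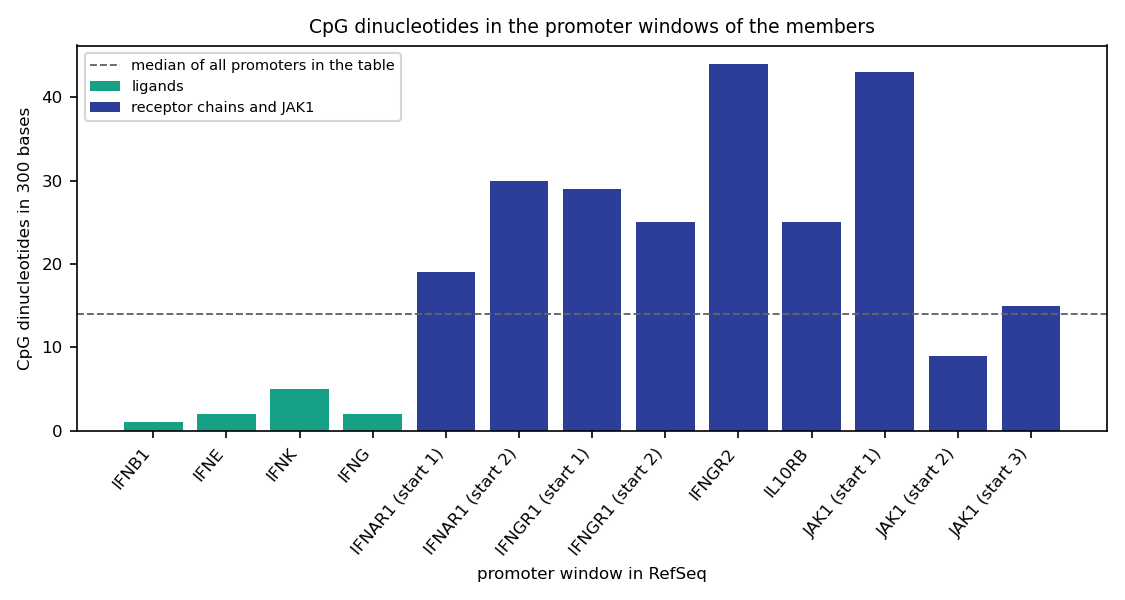
CpG dinucleotides (vertical axis, number in 300 bases) in each RefSeq promoter window of the genes (horizontal axis), ligands in green and receptor chains and JAK1 in blue, with the median of all promoters as a dashed line. The 4 ligand windows hold 1 to 5 CpGs and the 9 others hold 9 to 44, with the dashed line at 14.

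Short motifs, which the choice of genes did not use, were also counted in the windows. Their letters are mostly A and T. The comparison with all windows, whose median GC content was 58.7%, did not match for the low GC content of the ligand windows. The letters TATAAA, the core of a TATA box, on either strand were present in all 4 ligand windows and in 0 of the 9 others, while 11.5% of all promoter windows held them. Their position was not part of the search, and in the IFNE window they lay after the transcription start. The core motif of interferon regulatory factors, AANNGAAA on either strand, was found in 3 of 4 ligand windows (2 matches in IFNB1, 2 in IFNG and 1 in IFNK) and in 2 of the 9 others, both of JAK1, against 22.8% of all windows. The palindromic STAT motif TTCNNNGAA occurred in the windows of IFNB1, IFNK, IFNG and IL10RB and in 7.66% of all windows. In these windows the matches of different motifs had 0 overlaps. A match describes letters only and is no evidence of binding.

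The interferon genes IFNB1, IFNE, IFNK and IFNG gave no signal above background in either line. Background at the level of a gene was the 95th percentile of 286 olfactory receptor genes in the same array, 7.30 in HCT116-DKO and 7.08 in HCT116-WT, and for single probe sets it was 7.68 in HCT116-DKO and 7.66 in HCT116-WT. Of the 16253 genes with at least 3 probe sets, 11166 were above gene background in HCT116-DKO and 11405 in HCT116-WT, so many other genes lay below it. Of the 18 probe sets of the 4 ligands, 0 exceeded background in HCT116-DKO and 0 in HCT116-WT. The brightest of them belonged to IFNG and read 6.89 in HCT116-DKO and 6.87 in HCT116-WT. The arrays measured RNA of a whole culture, so that few cells with an active gene and little RNA in every cell cannot be told apart.

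IFNB1, the interferon that most cell types can make on viral infection, had a level of 4.10 in HCT116-DKO and 4.35 in HCT116-WT (log2 scale, median polish over 4 probe sets). Its 4 probe sets read 4.29, 3.56, 4.47 and 4.28 in HCT116-DKO, against 4.05, 5.00, 3.88 and 5.03 in HCT116-WT. Hence 2 were higher and 2 were lower in HCT116-DKO, and the values of both lines overlapped. IFNE, an interferon of the epithelium of the female reproductive tract, had a level of 3.98 in HCT116-DKO and 3.85 in HCT116-WT, with 4 of 6 probe sets higher. The probe sets read 2.65, 5.39, 4.15, 3.43, 4.25 and 2.59 in HCT116-DKO, against 2.56, 5.11, 3.37, 4.71, 4.08 and 3.04 in HCT116-WT and the SD of their differences was 0.71. IFNK had only 2 probe sets, fewer than the 3 demanded below. They read 3.13 and 5.80 in HCT116-DKO, against 2.88 and 5.12 in HCT116-WT. IFNG had a level of 4.38 in HCT116-DKO and 4.41 in HCT116-WT, and 3 of its 6 probe sets were higher. These read 6.89, 4.89, 3.58, 2.52, 6.28 and 1.78 in HCT116-DKO, against 6.87, 5.66, 3.44, 2.62, 5.22 and 2.62 in HCT116-WT, again with overlapping values. Levels below background have no order, and no fold is given for these genes. Their probe set differences, from -1.44 (IFNB1) to 1.06 (IFNG), had an SD of 0.71.

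Markers of the blood cells that make IFNG were low as well. Of 10 T and NK cell markers, 2 were above background in both arrays, CD8A (7.31 in HCT116-DKO and 7.48 in HCT116-WT) and NKG7 (7.52 in HCT116-DKO and 7.69 in HCT116-WT), both close to it, and 8 were above it in neither. The defining markers PTPRC and CD3E had levels of 3.88 and 5.33 in HCT116-DKO and of 3.81 and 5.32 in HCT116-WT. The log2 levels of the 10 markers summed to 60.9 in HCT116-DKO and 59.0 in HCT116-WT. Much of this gap came from KLRD1, a receptor chain of NK cells, at 5.75 in HCT116-DKO and 4.43 in HCT116-WT with 11 of 11 probe sets higher, but below background in both. As 8 of the 10 markers were below background in both lines, the sums do not measure the number of such cells.

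**Figure D2:**
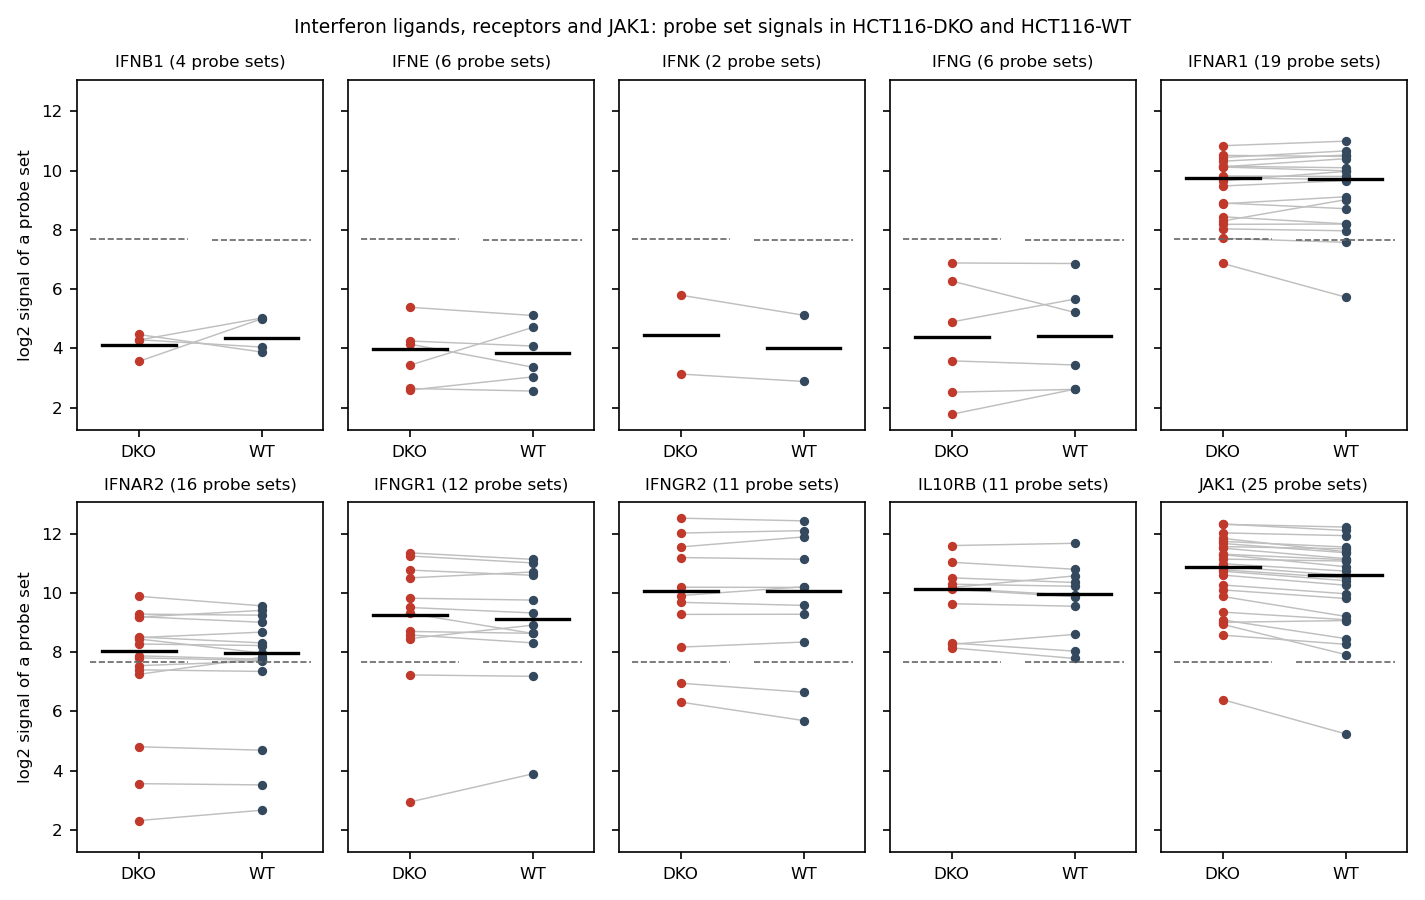
Log2 signal (vertical axis) of every probe set of the 10 genes in HCT116-DKO (left, red) and HCT116-WT (right, dark), with grey lines joining the same probe set, black bars for the gene level and dashed lines for probe set background (7.68 and 7.66). All 18 ligand probe sets lie under the dashed lines, while receptor chains and JAK1 lie mostly above and run nearly level between the lines.

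All 5 receptor chains and JAK1 were above background in both lines, as were 10782 of the 16253 genes with at least 3 probe sets. The levels of the chains were nearly the same in both lines. Of the 10782 genes, 88.9% also differed between the lines by less than 0.5 on the log2 scale. A gene counted as changed, that is as having risen or fallen, when it had at least 3 probe sets, a log2 difference (HCT116-DKO minus HCT116-WT) of at least 1 in size, the same direction in at least 75% of its probe sets, and a level above background in the line where it was higher. By this rule 0 of the 9 genes with enough probe sets rose and 0 fell. Over all 16253 genes tested, 433 (2.66%) rose and 87 (0.535%) fell, so a count of 0 among 9 genes is near the background share. The median difference of the 10 genes was 0.086, and that of all genes tested was 0.022.

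IFNAR1, the chain of the type I receptor that binds TYK2, had a level of 9.74 in HCT116-DKO and 9.72 in HCT116-WT. Its difference was 0.016 (1.01-fold, with an SD of 0.36 over 19 probe sets), and 10 of the 19 probe sets were higher in HCT116-DKO. The SD over probe sets describes the spread within the same arrays and is no replicate error. A few probe sets left this course, from a difference of -0.72 at probe set 3918584 to one of 1.14 at probe set 3918602, which read 6.87 in HCT116-DKO and 5.73 in HCT116-WT, below background in both.

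IFNAR2, which binds JAK1, had a level of 8.04 in HCT116-DKO and 7.99 in HCT116-WT. The difference was 0.053 (SD over 16 probe sets 0.26), with 11 of 16 probe sets higher. It was the receptor chain nearest to background, with a level 0.74 above it in HCT116-DKO and 0.91 above it in HCT116-WT. Only 10 of its probe sets exceeded probe set background in HCT116-DKO, and 12 did in HCT116-WT. Its 3 dimmest probe sets read 4.81, 3.56 and 2.32 in HCT116-DKO and 4.69, 3.52 and 2.66 in HCT116-WT, so the uneven signal along the gene was the same in both lines.

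IFNGR1, which binds the IFNG protein and JAK1, had a level of 9.25 in HCT116-DKO and 9.14 in HCT116-WT, a difference of 0.12 (SD over 12 probe sets 0.41) with 9 of 12 probe sets higher. The widest differences were -0.95 at a probe set that read 2.94 in HCT116-DKO and 3.89 in HCT116-WT, and 0.67 at one that read 9.31 in HCT116-DKO and 8.63 in HCT116-WT. IFNGR2, its partner chain, which binds JAK2, had a level of 10.07 in HCT116-DKO and 10.06 in HCT116-WT. With a difference of 0.0071 (SD over 11 probe sets 0.27) it had 6 of 11 probe sets higher in HCT116-DKO, and 97.7% of the 10782 genes above background in both arrays differed by more.

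IL10RB had a level of 10.12 in HCT116-DKO and 9.96 in HCT116-WT. The difference was 0.16 (1.12-fold, with an SD of 0.25 over 11 probe sets), and 8 of 11 probe sets were higher. All 11 exceeded probe set background in both lines, and their differences ran from -0.39 to 0.36. RefSeq also lists a read-through gene that joins IFNAR2 and IL10RB, and its transcripts cannot be told apart here from those of the separate genes.

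**Figure D3:**
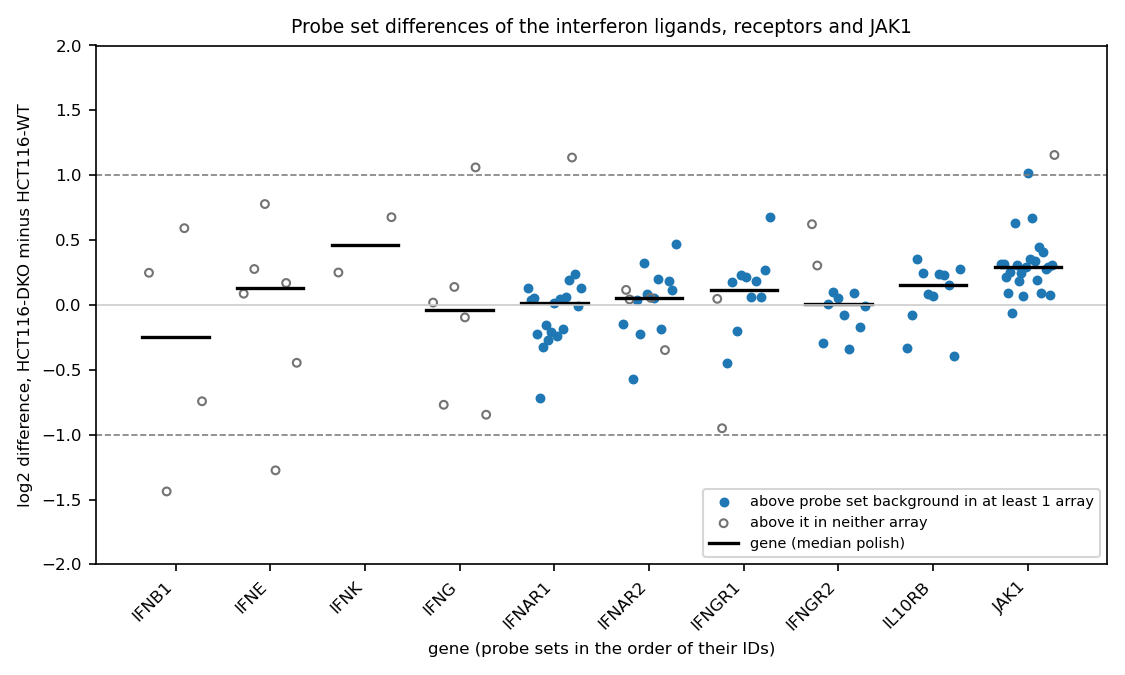
Log2 difference of each probe set (vertical axis, HCT116-DKO minus HCT116-WT) for the 10 genes (horizontal axis), filled where the probe set was above background in at least 1 array and open where it was not, with the gene difference as a black bar and dashed lines at 1 and -1. Bars of the receptor chains lie between 0.0071 and 0.16, the bar of JAK1 lies at 0.30, and the widest scatter is among open points.

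JAK1 showed the largest difference among the genes above background, but it stayed well under the size demanded. Its level was 10.89 in HCT116-DKO and 10.60 in HCT116-WT, which differ by 0.30 or 1.23-fold, and the SD over its 25 probe sets was 0.28. Of the 10782 genes above background in both arrays, 28.3% differed by at least as much in either direction. The shift was small and spread along the gene, as 24 of 25 probe sets (96.0%) were higher in HCT116-DKO and the remaining probe set read 9.01 in HCT116-DKO and 9.07 in HCT116-WT. A share of this size was found in 92 of 2251 genes (4.09%) that had 20 to 30 probe sets and were above background in both arrays, a comparison chosen after the JAK1 values were seen. Differences of at least 1 occurred at 2 JAK1 probe sets. Their signals were 8.94 and 6.40 in HCT116-DKO, against 7.92 and 5.24 in HCT116-WT, the second of them below background in both.

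The scaling of the arrays moved the JAK1 shift in size and not in direction. The median of all probe sets was 8.37 in HCT116-DKO and 8.28 in HCT116-WT. Quantile normalization of both arrays, which moved the median difference of all genes to -0.066, gave JAK1 a difference of 0.25 with 24 of 25 probe sets higher, and 2.89% of the comparable genes reached that share. After median centring the difference was 0.21 with 22 of 25 probe sets higher, a share that 7.37% of comparable genes reached.

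Over the receptor chains and JAK1 together, 84 of 94 probe sets differed by less than 0.5 and 3 differed by at least 1. The SD of the differences was 0.27 over the 81 probe sets above background in both arrays and 0.64 over the 10 above it in neither. Of the 10 probe sets with a difference of 0.5 or more in size, 4 were above background in neither array. For all probe sets of 1 gene that were above background in both arrays, this SD was 0.41. No probe set of these 6 genes departed from the difference of its gene by 2 or more on the log2 scale, and the largest departure was 1.12. In the same way 0 of 94 departed by 1.5 or more.

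IFNAR2, IL10RB, IFNAR1 and IFNGR2 lie next to each other on chromosome 21, in this order. Their differences were 0.053, 0.16, 0.016 and 0.0071. Of 8 genes with at least 3 probe sets on the list of genes around this cluster, 0 rose and 0 fell, and their median was -0.057. The brightest were GART, an enzyme of purine synthesis, with 10.97 in HCT116-DKO and 11.31 in HCT116-WT, and DONSON, a replication factor, with 10.42 in HCT116-DKO and 10.05 in HCT116-WT. Differences around the cluster reached 0.69 at DNAJC28, which was below background in both lines.

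Of 6 further type I interferon genes with at least 3 probe sets, 0 were above background in either line and 0 changed, with a median difference of -0.20. IFNL1, a type III interferon, was at 7.27 in HCT116-DKO and 7.22 in HCT116-WT, just under background in HCT116-DKO and just over it in HCT116-WT. IFNL3, another type III interferon, read 8.19 in HCT116-DKO and 8.44 in HCT116-WT, above background in both. It had only 1 probe set, too few to be called. The 6 ligands of the IL-10 family were all below background. Among receptor chains, IFNLR1, the partner of IL10RB for type III interferons, was at 8.25 in HCT116-DKO and 8.53 in HCT116-WT, with 16 of 19 probe sets lower, and did not pass the rule. Another partner of IL10RB, IL10RA, was at 7.44 in HCT116-DKO and 7.25 in HCT116-WT, just above background. Of 5 other class II cytokine receptors 0 rose and 0 fell, and the same held for 11 further chains that signal through JAK1. Among the latter, OSMR was at 9.95 in HCT116-DKO and 10.19 in HCT116-WT, with 24 of 24 probe sets lower. LIFR had the widest difference of the 11, -0.67 with 26 of 26 probe sets lower. The difference was above 0 for 5 of the 11, and their median was -0.055.

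The kinases that work with JAK1 did not pass the rule, while IRF9 further down the pathway did. TYK2, the kinase on IFNAR1, was at 9.25 in HCT116-DKO and 8.95 in HCT116-WT, and JAK3, the kinase of the common gamma chain of cytokine receptors, was at 7.65 in HCT116-DKO and 7.52 in HCT116-WT. JAK2, the kinase on IFNGR2, was at 7.10 in HCT116-DKO, under background, and at 7.51 in HCT116-WT, over it. Of the 3 other Janus kinases 0 rose and 0 fell. Among 7 measured genes on the list of STATs and IRF9, 1 rose, and the difference was above 0 for all 7 (median 0.49). It was above 0 for 53.7% of all genes tested, and 1 of the 7 was above background in neither line. The risen gene was IRF9, the DNA-binding partner of STATs after type I interferon, at 10.66 in HCT116-DKO and 8.62 in HCT116-WT, which is 4.11-fold, with 10 of 12 probe sets higher. Of 12 negative regulators of the receptors 0 changed. PTPN11, a phosphatase, came nearest, with 10.72 in HCT116-DKO and 11.57 in HCT116-WT and 25 of 25 probe sets lower.

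The even levels of the receptors stood beside a rise of many genes that interferon can induce. Of 39 interferon-stimulated genes tested, 20 (51.3%) rose and 0 fell, against the 2.66% and 0.535% of all genes, and their median difference was 1.17. The antiviral GTPases MX2 and MX1 were among them. MX2 was at 10.35 in HCT116-DKO and 6.04 in HCT116-WT, at least 9.67-fold higher against background, and MX1 was at 10.68 in HCT116-DKO and 6.49 in HCT116-WT, at least 12.1-fold higher. Of 16 genes induced chiefly by IFNG, 3 (18.8%) rose and 0 fell, with a median of 0.23. These were PSMB9 and TAP1, of peptide processing for antigen presentation, and the adhesion molecule ICAM1, which was at 8.73 in HCT116-DKO and 7.09 in HCT116-WT. Most genes of this list were silent by the background used here, with 10 of the 16 above it in neither line and 5 above it in both. Of 14 sensors and adaptors that lead to the transcription of interferon genes, 3 rose and 0 fell. They were the RNA sensors RIGI (8.82 in HCT116-DKO and 6.17 in HCT116-WT), IFIH1 (8.39 in HCT116-DKO and 6.95 in HCT116-WT) and DHX58, which are themselves interferon-stimulated. Set against the HCT116-WT background of 7.08, under which all of them lay in HCT116-WT, RIGI was at least 3.35-fold, IFIH1 at least 2.48-fold and DHX58 at least 1.89-fold higher. Of 7 other interferon regulatory factors 0 changed, with IRF1 at 8.92 in HCT116-DKO and 8.31 in HCT116-WT. Proteins, secreted interferon and phosphorylated STATs were not measured here.

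**Figure D4:**
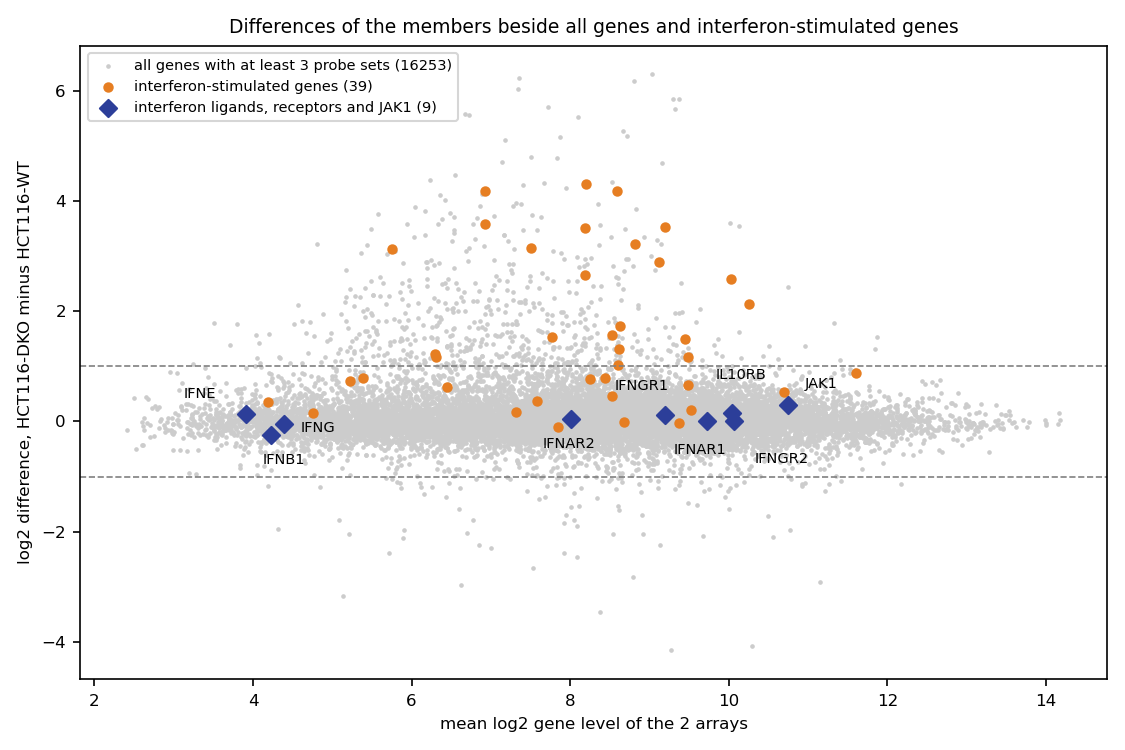
Log2 difference (vertical axis, HCT116-DKO minus HCT116-WT) against mean log2 level of both arrays (horizontal axis) for 16253 genes (grey), 39 interferon-stimulated genes (orange) and the 9 ligands, receptors and JAK1 with at least 3 probe sets (blue diamonds), dashed lines at 1 and -1. The diamonds lie between -0.25 and 0.30, and 20 orange points passed the rule upward.

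**Figure D5:**
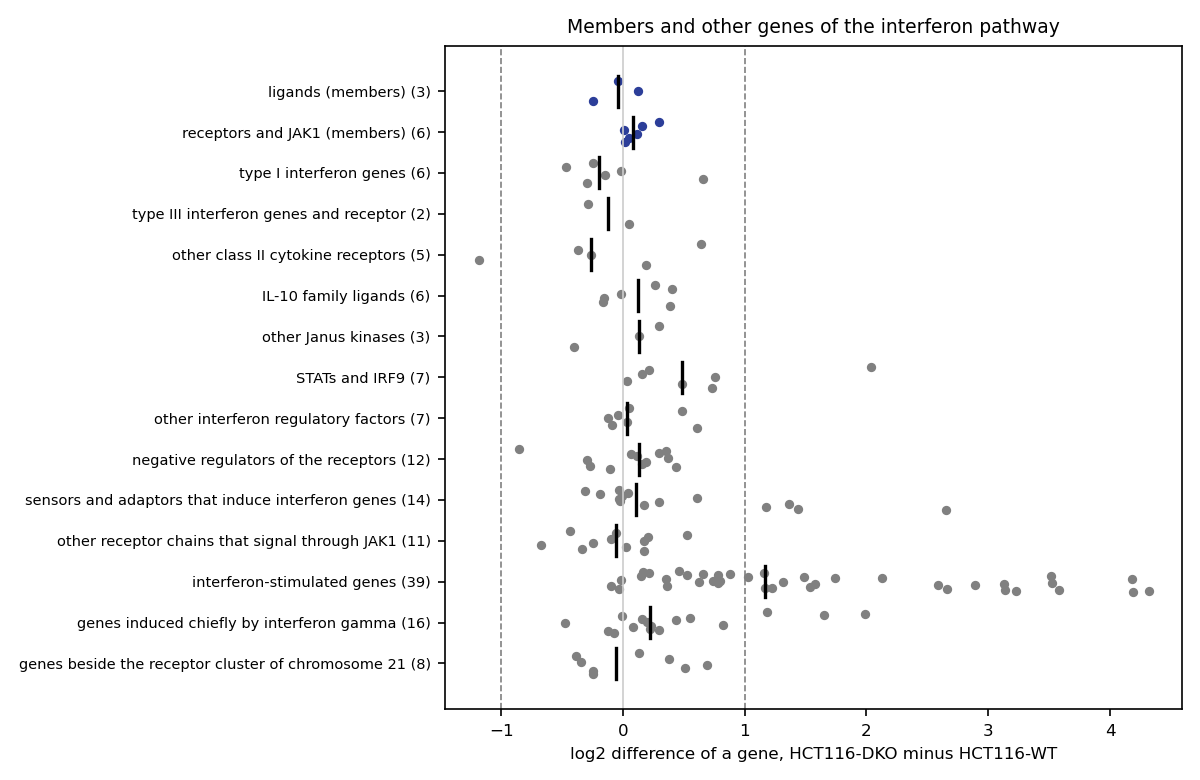
Log2 difference per gene (horizontal axis, HCT116-DKO minus HCT116-WT) for the ligands, the receptor chains with JAK1 and the other lists of the pathway (vertical axis, genes tested in brackets), with the median as a black bar and dashed lines at 1 and -1. Medians of the receptor chains with JAK1 (0.086) and of the interferon-stimulated genes (1.17) lie apart, and 3 of the 14 sensors and adaptors passed the rule.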

How the data were processed

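Each of 2 arrays has 1 value per probe set at the level of exons, a log2 signal in the deposited table. The submitters' processing notes name RMA, and the methods of the study mention Expression Console of Affymetrix and, for intensities of exons, Partek Genomic Suite. The program behind the values, and the set of arrays normalized jointly, were not given in the sources used here. RMA brings arrays to a common scale, so a shift shared by most genes would be reduced. Precision was limited by the number of arrays.

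Symbols came from the platform annotation of 2014 and were updated through RefSeq (GRCh38.p14), which was used for names, gene order and promoter windows. Gene levels were taken by median polish over probe sets (Python 3.11.15, pandas 2.3.3, numpy 2.4.6), and the procedure was tested on simulated data. Since each group had 1 array, no test was run. List members were described by counts and medians. Of each list, up to 4 changed genes were named, or up to 2 of the brightest where 0 changed. VIL1, KRT20, CEACAM5, CDX1, CDX2, PTPRC, CD3E, KLRD1, JAK2, DNAJC28, IFNL3, LIFR and the chromosomal neighbours were named outside this rule, with their values known. The genes and lists were chosen with earlier results of these data known. Alternatives covered scaling, summary, probe sets, size, share and background.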

Additional observations from a re-analysis of the deposited data

How the results depend on the processing

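In 14 alternatives of scaling, summary, probe sets, size, share and background, 0 of the genes with enough probe sets rose and 0 fell. IFNK, with 2 probe sets, could not be called in any of them. IFNB1 could not be called from even-numbered or odd-numbered probe sets alone, as fewer than 3 remained. All ligands dropped out where only probe sets above background in at least 1 array were kept. The median difference of the genes ranged from -0.030 to 0.19. The highest value came from setting levels below background to background. This gave every ligand a difference of 0.22, which is only the gap between the background levels of the arrays. The number of interferon-stimulated genes that rose ranged from 15 to 24. Over all genes, 921 rose and 292 fell with a size of at least 0.58 in place of 1, and 221 rose with background at the 99th percentile. JAK1, IL10RB and IFNGR1 kept a positive difference in all 9 alternatives that bear on it. The sign of IFNAR1 turned in 5, that of IFNGR2 in 4 and that of IFNAR2 in 2, with values of IFNGR2 down to -0.27 for the median over probe sets in place of median polish. Single ligands moved most, IFNB1 to -1.09 and IFNG to -0.77 with even-numbered probe sets. The cause was not tested. No paired analysis was possible because each group had 1 array. The variation between cultures of a line is unknown, so no difference could be set against it.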

Other observations

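Genes next to the ligands and receptors on their chromosomes were looked at after the values were seen, and 0 of those with at least 3 probe sets passed the rule of size. Beside IFNE, MTAP was at 9.87 in HCT116-DKO and 10.41 in HCT116-WT, with 0 of 18 probe sets higher, and CDKN2A, which encodes cell cycle inhibitors, was at 8.74 in HCT116-DKO and 9.18 in HCT116-WT, with 1 of 13 probe sets higher. Beside IFNGR1, the receptor chain IL20RA was at 5.53 in HCT116-DKO and 6.71 in HCT116-WT, a difference of -1.18 with 12 of 14 probe sets lower, but below background in both. TNFAIP3, an inhibitor of NF-kB signalling that lies nearby, was at 8.54 in HCT116-DKO and 9.01 in HCT116-WT, with 0 of 16 probe sets higher. Beside JAK1, RAVER2 was at 10.31 in HCT116-DKO and 10.48 in HCT116-WT, and DNAJC6 at 8.75 in HCT116-DKO and 8.37 in HCT116-WT, with 23 of 25 probe sets higher. IL26 and IL22, which lie beside IFNG, were below background in both lines like IFNG.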
